A study of Mus musculus with 32 samples.

Results

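Keratins are the intermediate filament proteins of epithelial cells, and the genes described here are all those whose mouse symbol is Krt followed by a number alone. This rule used gene names and no measured value. It found 49 genes of the 50600 in the tables, 26 of type I and 23 of type II. In GENCODE M21 on GRCm38, 25 of the type I genes lie in a cluster on chromosome 11 (99232761 to 100269871), and the type II genes lie in a cluster on chromosome 15 (101347444 to 102004482). Krt18 is the type I gene that lies beside the type II cluster, on chromosome 15 (102028180 to 102032027). One numbered symbol was left out as a pseudogene, and the lettered keratins (Krt6a, Krt6b, Krt33a and Krt33b) fall outside the rule. The genes were sorted by where each keratin is best known, into 3 basal, 5 suprabasal, 5 stress and companion layer, 5 simple-epithelial, 4 mucosal and corneal, 7 inner root sheath, 13 hair shaft and 7 other keratins.

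A keratin filament is built from pairs of 1 type I and 1 type II protein, and each kind of epithelium makes its own pairs. The basal cells of the epidermis make Krt5 with Krt14, the cells above them Krt1 with Krt10, glands and other simple epithelia Krt8 with Krt18, and the lining of the mouth and oesophagus Krt4 with Krt13. In the hair follicle, the inner root sheath that moulds the growing hair and the hair shaft itself each have their own sets. Melanocytes, the cells from which melanomas arise, are not epithelial and sit among keratinocytes in the skin and the hair follicle.

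The tumours were primary melanomas of mice, and RNA was measured in 32 of them by sequencing of polyadenylated transcripts. All mice carried Tyr::NrasQ61K, an activated Nras driven by the tyrosinase promoter, together with Cdkn2a-/+ (1 lost copy of a tumour suppressor gene) and Cdh1F/F (a floxed gene of the adhesion protein E-cadherin). Ecad mice had no further transgene (°/°), and ΔEcad mice had an extra allele that the labels print as Tyr::NRAS/° and the study's methods give as the Cre line Tyr::CreA/°. The tyrosinase promoter is active in the melanocyte lineage, and bulk values do not separate the Cdh1 of melanocytes from that of other cells. There were 8 tumours each of Ecad males, Ecad females, ΔEcad males and ΔEcad females. The lines were on a C57BL/6J background, the age of the mice is not given in the labels, and nothing in the labels says which tumours shared a litter or a batch.

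Total counts were 24036333 to 63923086 per tumour. Cdh1, the targeted gene, had median levels in TPM (a level scaled for gene length and library total) of 145 in Ecad males, 3.29 in ΔEcad males, 30.6 for the Ecad and 46.7 for the ΔEcad females, and a gene total also takes reads from exons outside a deleted part. The library labelled ΔEcad male 2 had 0 counts over the Y-linked genes Ddx3y, Uty, Kdm5d and Eif2s3y and 6.41 TPM of Xist, against its label. It was kept in its labelled group in the main comparisons. ΔEcad female 1 had 92 counts over these Y-linked genes and 101 TPM of Xist, and the other females had at most 4 counts. A list of 6 melanocytic genes (Dct, Tyr, Tyrp1, Pmel, Mlana and Mitf) summed to 5427 to 72306 TPM in 31 tumours and to 31 TPM in ΔEcad male 7. In bulk tissue, fewer cells of a type and less RNA per cell cannot be told apart.

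The amount of keratin RNA differed between tumours by several orders of magnitude. The 49 genes summed to 1.39 TPM in Ecad female 6, the lowest, and to 46962 TPM in ΔEcad female 2, the highest, where they made up 4.7% of all TPM. Ecad males had 18.4, 6095 and 27991 TPM of keratin as the lowest, median and highest, and Ecad females 1.39, 9.31 and 2494 TPM. For ΔEcad males these were 4, 749.5 and 18734 TPM, and for ΔEcad females 7.14, 7518 and 46962 TPM. Summed keratin passed 100 TPM in 7 Ecad males, 2 Ecad females, 4 ΔEcad males and 6 ΔEcad females, 19 tumours in all, and every group also held tumours under that level. The next tumours on either side of 100 TPM had 80.6 and 148 TPM. Most of the keratin RNA came from few genes. Krt14 made up 25.5% of the keratin TPM summed over the tumours, Krt10 16.5%, Krt5 15.9%, Krt1 12.6%, Krt17 8.75% and Krt16 7.55%, which is 86.8% for these 6 genes.

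**Figure D1:**
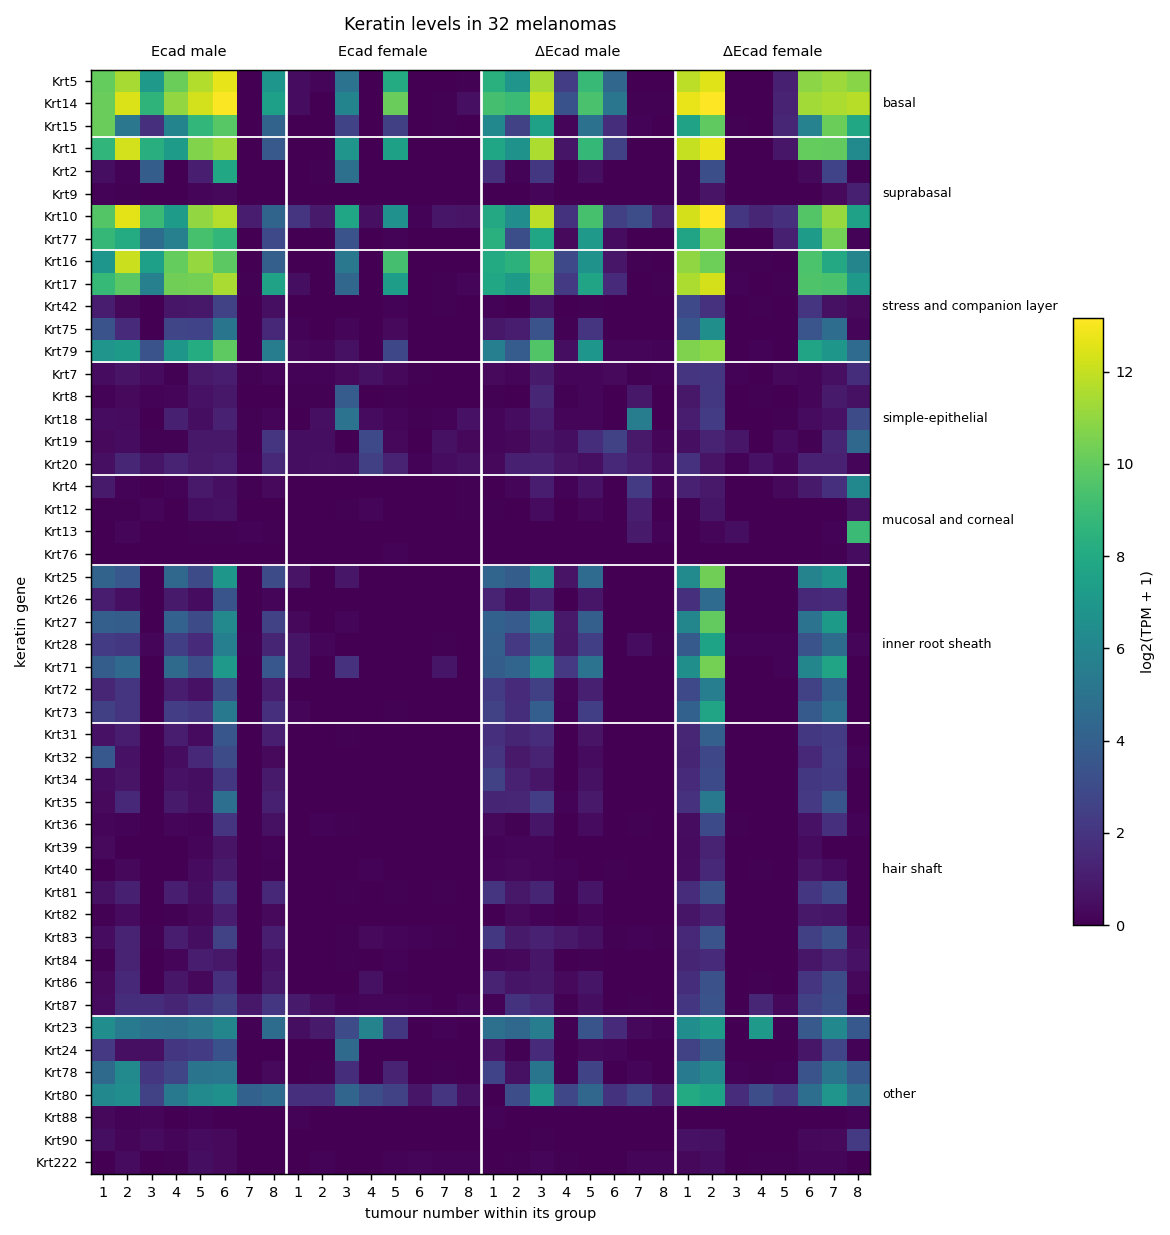
Level of each of the 49 keratins (rows, by class) in each of the 32 tumours (columns, by group and tumour number), as log2(TPM + 1) on a colour scale. Krt14 reaches 9186 TPM in ΔEcad female 2, while 6 of the 8 Ecad females are dark in nearly all rows.

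The DNA before the start of these genes is shown for members whose levels are compared as pairs across tumours, the basal pair Krt5 and Krt14, the suprabasal Krt10, the inner root sheath pair Krt71 and Krt25 and the hair keratin Krt31, with Krt18 for contrast. Each is read 5′ to 3′ on the gene's own strand from RefSeq (GRCm38.p6) and ends at or before the base next to the start, with bases annotated as exon in GENCODE M21 left off. Capitals mark TATAAA, the core of the TATA box at which transcription of some genes is set up.
Krt5, chr15:101712906-101713025, minus strand: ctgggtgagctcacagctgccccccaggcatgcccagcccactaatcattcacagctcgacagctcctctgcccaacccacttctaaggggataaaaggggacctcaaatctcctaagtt
Krt14, chr11:100206031-100206150, minus strand: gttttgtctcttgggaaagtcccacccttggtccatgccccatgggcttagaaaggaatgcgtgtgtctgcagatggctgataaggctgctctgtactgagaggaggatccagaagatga
Krt10, chr11:99389365-99389484, minus strand: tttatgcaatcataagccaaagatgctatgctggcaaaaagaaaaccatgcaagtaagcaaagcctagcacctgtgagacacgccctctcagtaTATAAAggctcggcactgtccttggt
Krt71, chr15:101743110-101743217, minus strand: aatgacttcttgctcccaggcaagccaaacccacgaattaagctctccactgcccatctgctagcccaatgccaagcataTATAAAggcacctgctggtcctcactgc
Krt25, chr11:99322952-99323071, minus strand: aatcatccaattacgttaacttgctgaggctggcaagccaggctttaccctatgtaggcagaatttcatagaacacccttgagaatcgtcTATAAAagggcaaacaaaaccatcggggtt
Krt31, chr11:100050552-100050671, minus strand: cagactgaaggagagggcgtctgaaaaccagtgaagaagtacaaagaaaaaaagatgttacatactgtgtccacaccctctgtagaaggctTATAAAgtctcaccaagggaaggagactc
Krt18, chr15:102028096-102028179, plus strand: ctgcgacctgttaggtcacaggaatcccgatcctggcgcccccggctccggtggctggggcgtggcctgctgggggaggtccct

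The RefSeq table held 35 of the 49 keratins. TATAAA on either strand lay within 250 bases before the start of 16 of these 35 (45.7%), against 14.3% of all 27025 genes in the table. It was present for all 7 inner root sheath keratins, 5 of 8 hair shaft keratins, 2 of 3 mucosal and corneal keratins, 1 of 4 suprabasal, 1 of 4 simple-epithelial and 0 of 2 basal keratins. In 13 keratins it was read on the gene's strand starting 25 to 40 bases before the start. The GC box GGGCGG lay in 2 of 35 (5.71%, against 35.4% of all genes), TGANTCA, the motif of AP-1, in 1 (2.86%, against 7.82%), and TTNNGCAA, a motif of C/EBP factors, in 4 (11.4%, against 10.8%), each on either strand in the same windows. No one of these motifs contains another, and a match is a description of the letters only. The window printed for Krt14 lies inside the longer gene model that GENCODE gives it.

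The basal keratins were the most abundant class. Krt14 (ENSMUSG00000045545, chromosome 11, 100203162 to 100207548) had 0, 1604 and 8744 TPM as the lowest, median and highest in Ecad males and 0, 0.195 and 1141 TPM in Ecad females. In ΔEcad males it had 0.04, 264 and 4363 TPM, and in ΔEcad females 0, 2792 and 9186 TPM. All 4 groups overlapped. Of the Ecad females, numbers 5 and 3 had 1141 and 60.2 TPM and stood above the other 6 of their group, which had at most 0.43 TPM. Ecad male 7, with 0 counts, stood below the other 7 of its group, at 169.8 TPM or more. Among the ΔEcad females, tumours 3 and 4 had 0 TPM and tumour 5 had 1.48 TPM, and the other 5 had 2547 TPM or more. Krt5 (ENSMUSG00000061527, chromosome 15, 101707070 to 101712898), the partner of Krt14, had medians of 1123 TPM in males and 0.125 TPM in females of the Ecad genotype, and of 67.1 and 1829 TPM in males and females of the ΔEcad genotype. The level of Krt5 over that of Krt14 had a median of 0.554 over the 20 tumours with at least 50 counts of both, and ranged from 0.234 to 0.961. Krt15, a keratin of basal cells and of the hair follicle bulge where follicle stem cells lie, varied far more. Its level over that of Krt14 ran from 0.00414 in Ecad female 5 to 1.01 in Ecad male 1, over 18 tumours. Ecad male 1 had 1135 TPM of Krt15 and 1123 TPM of Krt14, and Ecad male 2 had 36.3 and 5701 TPM.

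Krt10 and Krt1, the pair of differentiating epidermis, were the next most abundant pair. Krt10 had 1.06, 654 and 6385 TPM as the lowest, median and highest in Ecad males, 0.09, 0.82 and 219 TPM in Ecad females, with 1.42, 46.7 and 3748 TPM in ΔEcad males and 1.67, 488 and 9176 TPM in ΔEcad females. Every tumour had some Krt10, which was not so for Krt14. Krt1 had medians of 360.1, 0.01, 53.5 and 548 TPM in the same order of groups. The level of Krt10 over that of Krt14 spanned 68.8-fold over 20 tumours, from 0.0528 in ΔEcad female 8 to 3.63 in Ecad female 3. Krt2, a keratin of the upper epidermis, was near 0 in most tumours. It reached 232 and 13.7 TPM in Ecad males 6 and 3 and 28.1 TPM in Ecad female 3, and 7.94 TPM at most in the ΔEcad tumours. Krt77 had medians of 161, 0, 4.18 and 77.9 TPM in Ecad males, Ecad females, ΔEcad males and ΔEcad females. Krt9, the keratin of palms and soles, was at most 1.21 TPM, in ΔEcad female 8.

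Krt16 and Krt17, which injured or rapidly growing epidermis makes in quantity and Krt17 also in the hair follicle, came next in level. Krt16 had medians of 540.2, 0, 56 and 154 TPM in that order of groups, and Krt17 had 663, 0.1, 75.1 and 407 TPM. Ecad female 5 had 619 TPM of Krt16 and 162 TPM of Krt17, and the next Ecad female, tumour 3, had 38 and 19.1 TPM. Krt79, a keratin of the hair canal, had medians of 120.2, 0.06, 6.9 and 73.4 TPM in the same order. In Ecad females its highest value was 6.36 TPM, and in ΔEcad females it was 23.3 to 1963 TPM in tumours 1, 2, 6, 7 and 8 and at most 0.1 TPM in tumours 3, 4 and 5. Krt75, a keratin of the companion layer around the inner root sheath, had medians of 3.61, 0, 0.42 and 5.12 TPM. Krt42 was low throughout and reached 6.47 TPM in ΔEcad female 1.

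**Figure D2:**
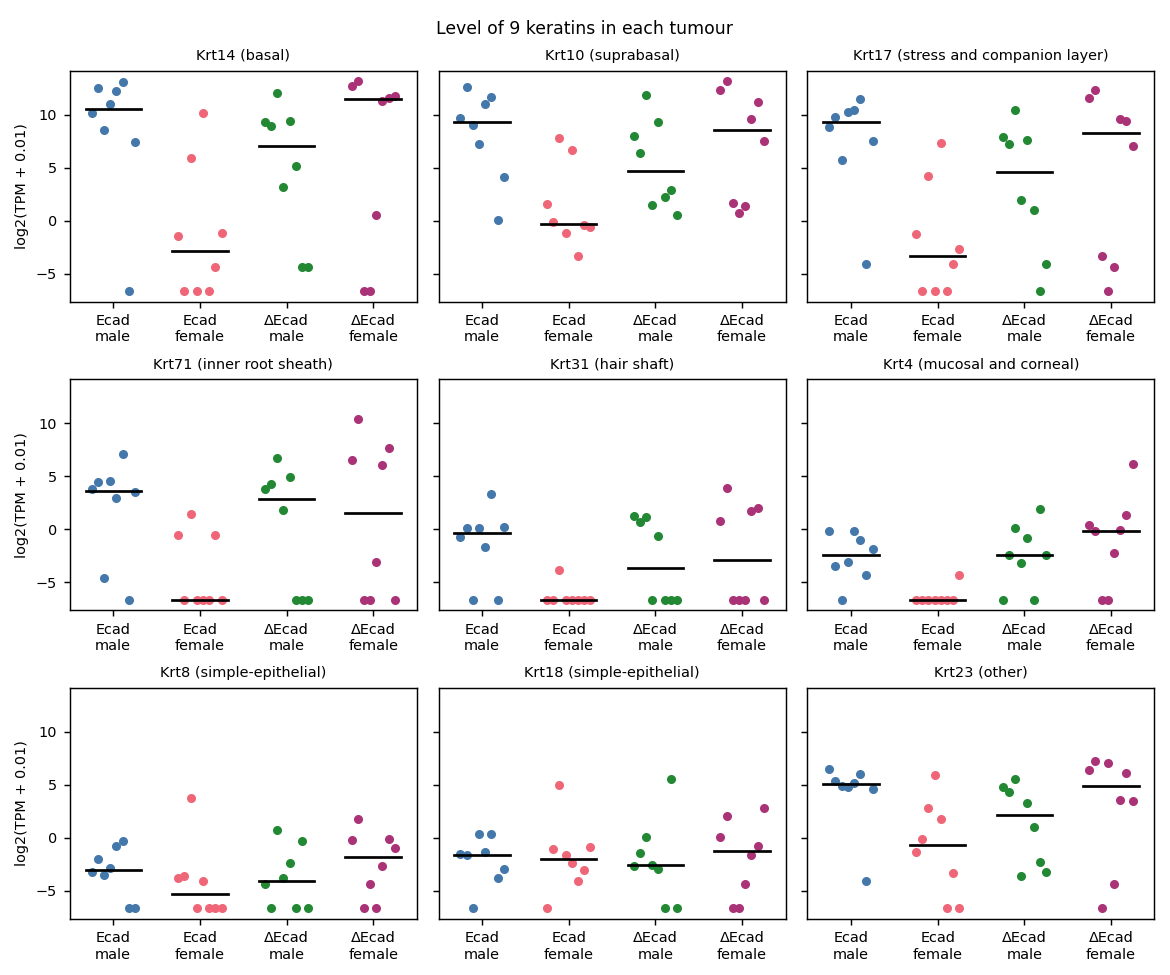
Level of 9 keratins as log2(TPM + 0.01), 1 point per tumour in 4 groups of 8, with a line at the group median. Points lie at the bottom of each panel where the level is 0, and Krt14 ranges from 0 to 8744 TPM within the Ecad males alone.

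The inner root sheath keratins were mostly present together or nearly absent, with partial sets in some tumours. ΔEcad male 4 had 72 counts of Krt71 and 0 of Krt26, and Ecad female 3 had 126 and 0. Krt71 (ENSMUSG00000051879, chromosome 15, 101733949 to 101743109), a type II keratin of that sheath, had 0, 12.3 and 137 TPM as the lowest, median and highest in Ecad males, 0, 0 and 2.72 TPM in Ecad females, with 0, 8.78 and 108 TPM in ΔEcad males and 0, 33.1 and 1374 TPM in ΔEcad females. Its type I partner Krt25 (ENSMUSG00000035831, chromosome 11, 99315516 to 99322951) had 0, 9.11 and 123 TPM, 0, 0 and 0.71 TPM, 0, 7.27 and 79.5 TPM, and 0, 29.4 and 1281 TPM in the same order. The ΔEcad females divided in 2. Tumours 1, 2, 6 and 7 had 92.4, 1374, 66.1 and 205 TPM of Krt71, and the other 4 had at most 0.11 TPM. The 7 genes of this class together had 0.05, 42.3 and 439 TPM in Ecad males, and their sum did not pass 3.64 TPM in any Ecad female. In ΔEcad males the sum was 0, 29.8 and 297 TPM, and in ΔEcad females 0.09, 92.7 and 4162 TPM. At least 4 of the 7 genes had more than 3 counts in 6 Ecad males, 1 Ecad female, 5 ΔEcad males and 4 ΔEcad females. ΔEcad female 2 alone had 1374 TPM of Krt71, 1281 TPM of Krt25, 1028 TPM of Krt27, 207 TPM of Krt73 and 201 TPM of Krt28, and its inner root sheath keratins were 8.86% of its keratin TPM, against 4.11% or less in the other 18 tumours with over 100 TPM of keratin.

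The hair shaft keratins were low in every tumour. Krt31, a type I hair keratin, had 0, 0.815 and 10.3 TPM in Ecad males, 0, 0 and 0.06 TPM in Ecad females, with 0, 0.315 and 2.42 TPM in ΔEcad males and 0, 0.85 and 15.2 TPM in ΔEcad females. Krt34 had 0 counts in all 8 Ecad females and 1.92, 6.8, 3.4 and 4.02 TPM in ΔEcad females 1, 2, 6 and 7. Krt35 reached 39.1 TPM in ΔEcad female 2 and 27.4 TPM in Ecad male 6, and at most 0.02 TPM in an Ecad female. The type II hair keratins Krt81 and Krt86 had highest levels of 8.72 and 8.55 TPM, both in ΔEcad female 2. The 13 genes summed to 0.81, 10.4 and 69.6 TPM in Ecad males, 0.08, 0.415 and 1.05 TPM in Ecad females, with 0.04, 3.27 and 20.6 TPM in ΔEcad males and 0.04, 11.1 and 117 TPM in ΔEcad females. The ratio of the 2 follicle parts was not fixed. The level of Krt71 was 90.2 times that of Krt31 in ΔEcad female 2 and 5.78 times in ΔEcad male 1, the extremes of the 5 tumours with at least 50 counts of both.

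Simple-epithelial keratins were low in most tumours. Krt18 had 0, 0.32 and 1.28 TPM in Ecad males, 0, 0.25 and 31.8 TPM in Ecad females, with 0, 0.155 and 45.6 TPM in ΔEcad males and 0, 0.44 and 6.94 TPM in ΔEcad females, so that all groups overlapped. Its partner Krt8 had medians of 0.115, 0.025, 0.05 and 0.325 TPM. Single tumours held most of this RNA. Ecad female 3 had 31.8 TPM of Krt18 and 13.2 TPM of Krt8, and it also had 12680.0 TPM over a list of 5 salivary and mucosal gland genes, against at most 768 TPM in any other tumour. The list did not move as a whole. Bpifa2, Dcpp1 and Pip had 8313, 2334 and 2022 TPM in Ecad female 3. Muc19 had 0 counts in all Ecad females, and Aqp5 was highest among them in Ecad female 5, at 31.8 TPM. The 768 TPM came from Aqp5 in ΔEcad male 5. ΔEcad male 7 had 45.6 TPM of Krt18 and 0.82 TPM of Krt8, and it is the tumour with 31 TPM of melanocytic genes. ΔEcad female 8 had 6.94 TPM of Krt18 and 20.6 TPM of Krt19, a keratin of ducts and of the hair follicle. Krt20, a keratin of the gut and of Merkel cells, stayed between 0.09 and 4.58 TPM, and Krt7 at 3.17 TPM or less. Whether the gland genes or the missing melanocytic genes had a part in these Krt18 levels was not tested.

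The mucosal pair was high in 1 tumour. Krt13 had 494 TPM (10925 counts) and Krt4 70.3 TPM in ΔEcad female 8. Outside that tumour Krt13 was at most 0.94 TPM and Krt4 at most 3.75 TPM, both in ΔEcad male 7. ΔEcad female 8 also held the highest Krt90 (3.77 TPM), Krt76 (0.36 TPM, a keratin of the hard palate) and Krt9 (1.21 TPM). Beside 3444 TPM of Krt14 it had 182 TPM of Krt10, 63.7 TPM of Krt16 and 135 TPM of Krt17, the lowest levels relative to Krt14 of any tumour in which these ratios could be formed, and it had 0 TPM of Krt71, Krt25 and Krt31. Basal keratins were 82.9% and mucosal and corneal keratins 8.55% of its keratin TPM. Krt12, the keratin of the cornea, was at most 1.17 TPM in any tumour.

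Of the remaining keratins, Krt23 was also found where Krt14 was not. It had 135 TPM in ΔEcad female 4 and 59.3 TPM in Ecad female 4, both with 0 TPM of Krt14. In ΔEcad female 4, the keratins outside the named classes made up 97.1% of the keratin TPM. Krt80 had counts in every tumour but 1, with 12 to 5927 counts in 31 tumours and 0 counts in ΔEcad male 1, which had 626 TPM of Krt14. A count of 0 allows up to 3 counts, for counting error only. Krt24 was highest in Ecad female 3, at 22.2 TPM. Krt78 had medians of 14.2, 0.035, 0.33 and 10.3 TPM, and Krt88 and Krt222 were at most 0.2 and 0.4 TPM.

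**Figure D3:**
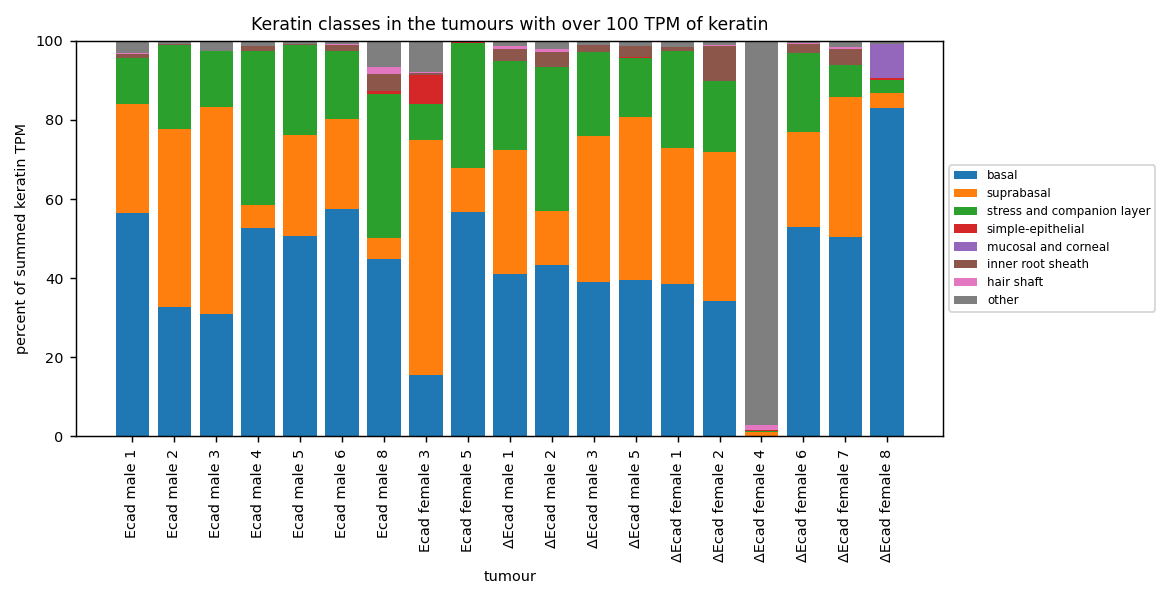
Share of each keratin class in the summed keratin TPM (percent, stacked bars) of the 19 tumours with over 100 TPM of keratin. Basal keratins run from 0% in ΔEcad female 4, where other keratins hold 97.1%, to 82.9% in ΔEcad female 8.

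Composition varied among the 19 tumours with over 100 TPM of keratin. The median share was 43.2% for basal, 27.6% for suprabasal, 19.9% for stress and companion layer, 1.22% for other, 1.13% for inner root sheath, 0.175% for hair shaft, 0.0369% for simple-epithelial and 0.00787% for mucosal and corneal keratins. Suprabasal keratins exceeded basal ones in Ecad male 2 (44.8% against 32.8%), Ecad male 3 (52.2% against 31%), Ecad female 3 (59.2% against 15.6%), ΔEcad male 5 (41.3% against 39.5%), ΔEcad female 2 (37.7% against 34.2%) and ΔEcad female 4 (1.13% against 0%). In Ecad male 4 and Ecad male 8 the stress and companion layer keratins, at 39% and 36.6%, far exceeded the suprabasal ones, at 5.62% and 5.24%. Ecad female 5 had 31.6% of stress and companion layer keratins and 0.0016% of inner root sheath keratins.

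Genotypes were first compared within females, the comparison that asks what loss of E-cadherin in melanocytes changes there. edgeR's quasi-likelihood test was fitted to the counts of all genes. A called gene had an adjusted p (Benjamini-Hochberg, over 17717 tested genes) below 0.05 and differed by more than 1 on the log2 scale. Total Cdh1 RNA did not differ between the female genotypes, with a log2 fold change of 0 (adjusted p 0.999). Between the male genotypes it had -3.33 (adjusted p 0.365) and was not called either. As the labels do not say that tumours came from separate animals, p-values measure only the spread between these tumours. Of the 49 keratins, 38 passed the filter on low counts and 11 did not (Krt9, Krt12, Krt13, Krt36, Krt39, Krt40, Krt76, Krt82, Krt88, Krt90 and Krt222). In ΔEcad females 14 keratins were called higher and 0 lower, where 1.16% of all tested genes were called higher and 0.0452% lower, 1.20% in all. They were 6 of the 7 inner root sheath keratins (Krt25, Krt26, Krt27, Krt28, Krt72 and Krt73), 4 hair shaft keratins (Krt31, Krt35, Krt81 and Krt83), 3 stress and companion layer keratins (Krt42, Krt75 and Krt79) and the mucosal Krt4. By edgeR no basal, suprabasal, simple-epithelial or other keratin was called. At an unadjusted p under 0.05, 29 keratins were higher and 0 lower, where 11.2% of tested genes were higher and 4.13% lower. A keratin that was nearly absent from Ecad females could pass the filter only through other groups. The filter limit of 0.288 CPM (counts scaled to library size) was reached in no Ecad female by 14 of the tested keratins, and 29 of them reached it in enough male tumours to pass without any female. The called Krt42 and Krt4 reached it in 6 tumours outside the ΔEcad females, where 8 were needed, so both were tested only because of the group in which they were called higher. The same holds for Krt34, Krt32, Krt84, Krt8 and Krt18, which were not called.

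The sizes of these differences were as follows, with each fold change fitted to counts and its standard error (SE). Krt27 had a log2 fold change of 11.14 (SE 2.41, adjusted p 0.0394) and Krt72 one of 10.92 (SE 2.49, adjusted p 0.0394). Krt72 had 0 counts in every Ecad female. With a floor of 3 counts per library, its mean was at least 91-fold higher in the ΔEcad group, a bound that fell to at least 38-fold when ΔEcad female 2 was left out. Krt25, Krt26, Krt28 and Krt73 had log2 fold changes between 8.00 and 9.83, with adjusted p of 0.0394 to 0.0429. The summed counts of Krt26 were 799 times higher, relative to library size, in ΔEcad than in Ecad females, with a 95% exact interval of 221 to 6602 that covers counting error only. ΔEcad female 2 held 1196 of the 1484 counts, and without it the ratio was 176 (48.2 to 1457). Krt71, at 8.42 (SE 2.24, adjusted p 0.0513), lay just outside the threshold. Among hair shaft keratins, Krt35 had 9.30 (SE 2.16, adjusted p 0.0394), Krt31 7.46 (SE 1.86, adjusted p 0.0463), Krt81 6.74 (SE 1.69, adjusted p 0.0464) and Krt83 5.33 (SE 1.37, adjusted p 0.0494). Krt34 and Krt32, listed at 0 counts in every Ecad female, were at least 15-fold and at least 14-fold higher in the other genotype on the same floor, and at least 10-fold and at least 9-fold without the highest tumour, with adjusted p of 0.0517 and 0.0522. Krt79 had 9.03 (SE 2.33, adjusted p 0.0494), Krt75 8.01 (SE 2.04, adjusted p 0.0472) and Krt42 6.12 (SE 1.49, adjusted p 0.0434). Krt4 had 9.66 (SE 1.79, adjusted p 0.0394), and without ΔEcad female 8 its log2 fold change was 6.59.

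By edgeR the most abundant keratins were not called in females. Krt14 had a log2 fold change of 4.33 (SE 2.19, adjusted p 0.346), Krt5 one of 5.65 (SE 2.26, adjusted p 0.19), Krt10 one of 5.49 (SE 1.96, adjusted p 0.13) and Krt15 one of 7.89 (SE 2.17, adjusted p 0.0537). Without Ecad female 5, the value for Krt14 was 8.07. Krt1, Krt16, Krt17 and Krt77 had 5.36, 2.67, 5.69 and 8.12, with adjusted p of 0.251, 0.605, 0.167 and 0.0752. Krt86 had 5.42 (adjusted p 0.0562). DESeq2 gave adjusted p of 0.0365 for Krt5, 0.00254 for Krt10, 0.000237 for Krt15, 0.0145 for Krt17 and 0.00385 for Krt77, all called higher, and of 0.15, 0.082 and 0.532 for Krt14, Krt1 and Krt16, which were not. The simple-epithelial Krt8 and Krt18 had -1.56 and -1.91 (adjusted p 0.676 and 0.619), and without Ecad female 3 these were 4.64 and 2.56, so their direction rested on that tumour. DESeq2 gave 4.35 (adjusted p 0.016) for Krt8 and 2.54 (adjusted p 0.106) for Krt18, but it replaced the outlying counts of Ecad female 3, 504 by 4 for Krt8 and 944 by 8 for Krt18. Without that replacement it gave -1.47 (adjusted p 0.684) and -1.87 (adjusted p 0.532). The same held for Krt2, at -1.33 with it and 7.73 without it. Krt7 had 2.81 (adjusted p 0.0963), Krt19 had 1.47, which became -0.47 without ΔEcad female 8, and Krt20 had -0.16.

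**Figure D4:**
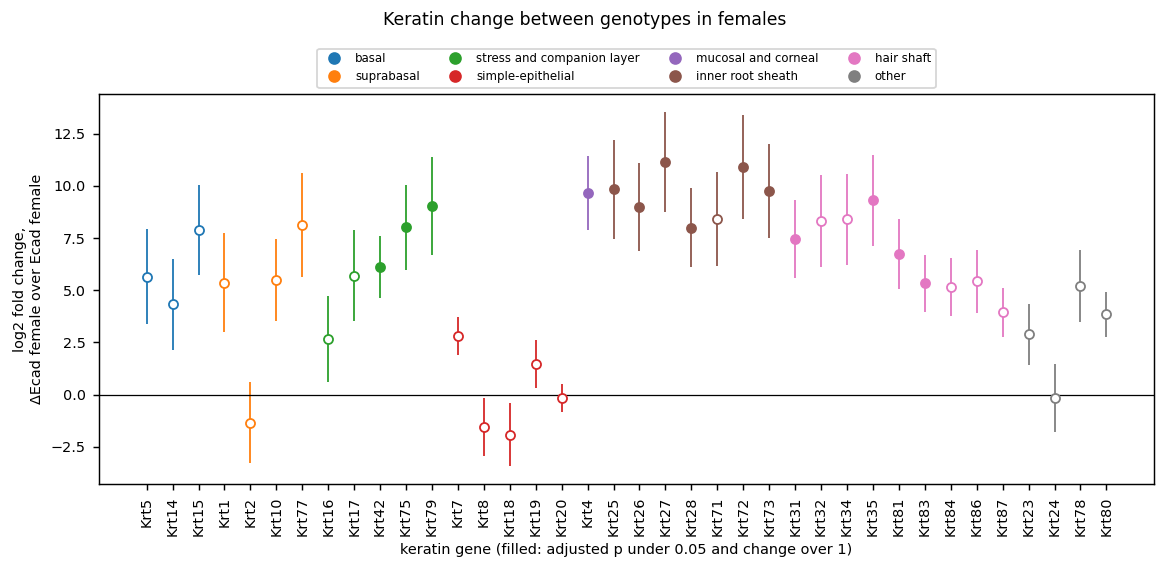
Log2 fold change between ΔEcad and Ecad females (vertical axis, bars 1 SE) of the 38 tested keratins, by class, filled where the gene was called. The 7 inner root sheath keratins lie between 8.00 and 11.14, and Krt8 and Krt18 lie below 0.

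The number of called keratins changed when single tumours were left out, to fewer in some fits and to more in others. The count of called keratins was 0 without any 1 of Ecad females 1, 2, 3, 4, 6, 7 and 8 or ΔEcad females 2 and 7, 1 without ΔEcad female 1 and 8 without ΔEcad female 6. It was 19 without Ecad female 5, 22 without ΔEcad female 3 or 5, 23 without ΔEcad female 4 and 20 without ΔEcad female 8. Without the library labelled ΔEcad male 2, which entered the fit only through the shared spread, 7 keratins were called. The share of all genes called in each of these fits is not given here. The counts therefore do not set keratins apart from other genes. DESeq2 called 34, where it called 6.91% of all genes, and limma voom 0, where it called 0.00564%.

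Genes of other cell types were examined beside these values. Of 6 hair follicle genes that are not keratins, 5 were tested, with a median log2 fold change of 7.04. In ΔEcad females 4 of them were called higher by edgeR, where 1.16% of all tested genes were called higher. These 4 were Tchh (trichohyalin, a protein of the inner root sheath), Hoxc13 (a regulator of hair keratins), Padi3 and S100a3. Each was highest in ΔEcad female 2. Without that tumour the ΔEcad female mean fell from 34.3 to 10.3 TPM for Tchh and from 7.67 to 1.56 TPM for Padi3. In Ecad females these means were 0.258 and 0.0537 TPM. Whether the 4 calls held without single tumours or by other methods is not given here. The summed TPM of the list ran from 0.09 to 1.01 in Ecad and from 0.5 to 311 in ΔEcad females. In Ecad males and ΔEcad males it was 0.04 to 72.2 and 0.12 to 35.4 TPM. Of 12 keratinocyte genes that are not keratins (such as Trp63, Dsg3 and Lor), 0 of 12 tested were called, with a median log2 fold change of 5.41 and adjusted p of 0.0518 to 0.28. The TPM of that list summed to 7.9 to 7222 in males and 3.46 to 414 in females of the Ecad genotype, and to 5.97 to 4939.5 and 7.58 to 15479.9 in those of the ΔEcad genotype. With its mean log2 level as a covariate, 0 keratins were called, and the share of all genes called in that fit is not given here. The log2 fold changes were then 2.72 for Krt27, 0.17 for Krt71, -0.03 for Krt14 and 5.28 for Krt72. Among the named keratins they ran from -6.65 for Krt2 to 9.37 for Krt4 (adjusted p 0.185 and 0.0739 by edgeR). Krt4 was tested only because of the ΔEcad females, as stated above. Of the 6 melanocytic genes, 0 of 6 were called, with a median of -1.06. Of the 5 gland genes 2 were tested, and Bpifa2, a salivary protein gene, was called lower (-12.13, SE 2.87, adjusted p 0.0394), but it had 8313 TPM in Ecad female 3 and a mean of 0.127 TPM in the other 7 Ecad females, against 0.294 TPM in ΔEcad females, so its direction rested on that tumour. The lettered keratin Krt33a was called (8.16, SE 1.85, adjusted p 0.0394) and Krt33b, Krt6a and Krt6b were not. How much of the keratin difference came with the amount of epidermis or hair follicle in a tumour was not tested beyond these values.

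In males, 0 of 38 keratins were called between genotypes by edgeR, where 0% of all genes were called. DESeq2 called 0 keratins and 0.160% of all genes, and limma voom 0 of either. By edgeR 3 keratins had an unadjusted p under 0.05, 1 higher and 2 lower, where 7.19% of all genes were higher and 3.05% lower, 10.2% in all. The 2 with the smallest p were Krt42, at -3.08 (SE 1.25, adjusted p 0.441), and Krt18, at 3.52 (SE 1.63, adjusted p 0.476). Without ΔEcad male 7 the value for Krt18 was -0.56. Krt14, Krt10 and Krt71 had -1.61, -1.24 and -0.08, with SE of 1.95, 1.64 and 1.61. The inner root sheath keratins had a median log2 fold change of -0.08 and the hair shaft keratins one of -0.48, where all tested genes had 0.11.

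Female and male Ecad tumours were compared next, and these comparisons share their tumours with those above. By edgeR 0 of 38 keratins were called, where 0.0508% of tested genes were called (0.0113% higher and 0.0395% lower in females). At an unadjusted p under 0.05, 28 keratins were lower and 2 higher in females, where 10.3% of tested genes were lower and 5.71% higher. Krt35 and Krt32 had the smallest p, with -8.40 (SE 2.10) and -8.76 (SE 2.23), both at an adjusted p of 0.0869. DESeq2 called 28 keratins here, where it called 5.32% of all genes, and limma voom 0, where it called 0.649%. The class medians were -7.50 for inner root sheath, -5.27 for hair shaft, -5.50 for basal and 0.40 for simple-epithelial keratins, beside 0.05 for all genes.

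Between female and male ΔEcad tumours 0 of 38 keratins were called by edgeR, where 0.0395% of tested genes were called (0.00564% higher and 0.0339% lower in females). At an unadjusted p under 0.05, 2 keratins were higher and 0 lower, where 3.32% of tested genes were higher and 5.49% lower, 8.81% in all. These were Krt42, at 3.70 (SE 1.27, adjusted p 0.484), and Krt4, at 3.42 (SE 1.27, adjusted p 0.5), which was 0.35 without ΔEcad female 8. Both passed the filter on low counts only with the ΔEcad females, the group in which they were higher. DESeq2 called 1 keratin and 0.222% of all genes, and limma voom 0 keratins and 0.0339%.

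The interaction asks whether the genotype difference itself differed between the sexes. By edgeR 0 of 38 keratins passed, as did 0% of all genes, and 30 keratins had a higher and 1 a lower interaction at an unadjusted p under 0.05, where 10.7% of tested genes were higher and 6.94% lower. Krt42 had the smallest p, with an interaction of 9.19 (SE 1.94, adjusted p 0.0509), followed by Krt4 at 8.60 (SE 2.05, adjusted p 0.0526). As above, both were tested only because of their levels in the ΔEcad females. Krt27 had 11.02 (SE 2.71, adjusted p 0.0526), Krt14 5.95 (SE 2.91, adjusted p 0.281) and Krt18 -5.43 (SE 2.21, adjusted p 0.182). For Krt18 both differences behind it changed direction without 1 tumour, the female one from -1.91 to 2.56 without Ecad female 3 and the male one from 3.52 to -0.56 without ΔEcad male 7. The count of keratins that passed was 27 with DESeq2, 8 with other size factors and 8 without the filter, where 6.69%, 1.13% and 0.849% of all genes passed. It was 0 with limma voom and 0 to 19 when single tumours were left out, with 19 without ΔEcad male 3. The shares of all genes that passed in those fits are not given here.

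Pairs of keratins were then compared across tumours, on log2 CPM with a prior count of 1. Pearson's r and Spearman's rho were computed for 15 relations, with two-sided permutation tests, Benjamini-Hochberg adjustment over the 15 and r again after leaving out the 2 tumours whose first gene lay farthest from its median. Krt5 and Krt14 had r = 0.995 and rho = 0.984 over 32 tumours (permutation p 1e-05 each, the smallest the permutations can give, adjusted p 1.87e-05), 0.994 without the 2 tumours, and 0.979 to 1 within the 4 groups. Krt1 with Krt10 had r = 0.966 and rho = 0.921, Krt71 with Krt25 0.98 and 0.913, Krt86 with Krt31 0.932 and 0.942, and Krt8 with Krt18 0.786 and 0.72, each with the same permutation p and adjusted p. Without the 2 tumours r was 0.969, 0.975, 0.915 and 0.69. All these partners of opposite type lie on different chromosomes except Krt8 and Krt18. Within the Ecad females r was 0.948 for Krt1 with Krt10, 0.779 for Krt71 with Krt25 and 0.464 for Krt86 with Krt31, in tumours where the follicle keratins were mostly at 0. Krt13 lay in 1 tumour far from the rest, so no pooled r is given for it.

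Krt14 was also compared with keratins of other classes. Krt14 with Krt10 had r = 0.931 and rho = 0.912, Krt14 with Krt71 0.768 and 0.775, and Krt14 with Krt31 0.763 and 0.716 (permutation p 1e-05 and adjusted p 1.87e-05 for each). Without the 2 farthest tumours r was 0.93, 0.743 and 0.748. Within groups, Krt14 with Krt71 ranged from 0.188 in Ecad females to 0.879 in ΔEcad males. Krt14 with Krt18 had r = 0.35 (permutation p 0.0482, adjusted p 0.0517) and rho = 0.572 (permutation p 0.00071, adjusted p 0.000887), with r from -0.236 in ΔEcad males to 0.89 in ΔEcad females. Krt4 with Krt14 had -0.252 and -0.249 in Ecad females and ΔEcad males and 0.459 and 0.823 in Ecad males and ΔEcad females. Cdh1 was also compared with Krt14. In the 16 ΔEcad tumours r was 0.813 (permutation p 0.0002, adjusted p 0.000333) and rho 0.882 (permutation p 3.00e-05, adjusted p 5.00e-05), r was 0.794 without the 2 farthest tumours, and it was 0.636 in males and 0.921 in females. In the Ecad tumours, where 38.9% of the Krt14 range was a single gap, r was 0.864 in males and 0.531 in females. Krt18 with Cdh1 had r = 0.501 (permutation p 0.0482, adjusted p 0.0517) and rho = 0.585 (permutation p 0.0189, adjusted p 0.0203) in ΔEcad tumours, with r = 0.85 without the 2 farthest, 0.0799 in males and 0.851 in females. In the Ecad tumours, where 44.9% of the Krt18 range was a single gap, r was 0.621 in males and 0.289 in females. All genes of a tumour share its depth and its mix of cells.

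**Figure D5:**
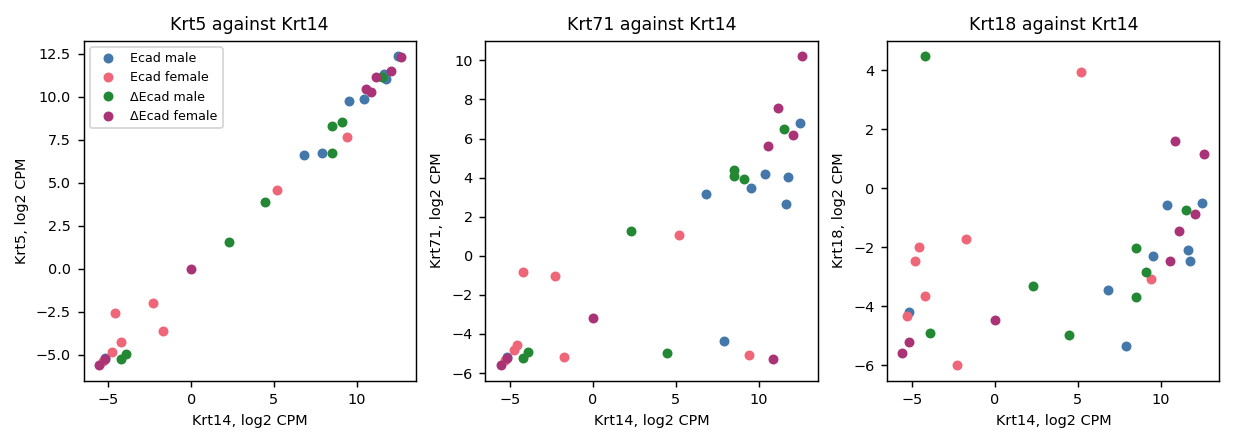
Krt5, Krt71 and Krt18 against Krt14 in each of 32 tumours, in log2 CPM with a prior count of 1, coloured by group. Krt5 follows Krt14 (r = 0.995), Krt71 is near its lowest in 4 tumours with 34.7 to 3444 TPM of Krt14 (r = 0.768), and Krt18 spreads widely (r = 0.35).

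Some keratins share sequence with other genes, and the strand used in counting is not given in the sources used here. Of the 49 genes, 30 shared no run of 100 bases with a transcript of another gene and 19 did, 8 of them over more than 10% of their runs. Krt81 and Krt86 shared 25% and 24.6% of theirs, mainly with each other, Krt16 shared 24.3% and Krt34 17.5%, Krt8 17.1%, mainly with the pseudogene Krt8-ps, and Krt31 14%, mainly with Krt34. Levels within these pairs, and the order of members within them, are uncertain. For Krt14 and Krt5 the shared part was 2.78% and 3.81%. In addition, 10 keratins overlap a neighbouring gene in the annotation, among them Krt10, Krt5, Krt8, Krt7 and Krt80, and are uncertain to that extent.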

How the data were processed

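RNA of 32 mouse melanomas was sequenced from stranded polyadenylated libraries. The submitters' processing notes name FastQC 0.11.5 and STAR. Per the study's methods, the authors aligned reads with STAR to GRCm38.p5 with GENCODE M13, and deposited gene-level raw counts of all tumours as 1 table. A further deposited table holds TPM, and how the authors made it is not given in the sources used here. Batch correction was used where applicable, which is not stated for these tumours. Groups followed the labels.

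Levels are given as the deposited TPM. Tests used counts in edgeR 4.0.16 (R 4.3.3): TMM factors, a filter on low counts by group, 1 model of the 4 groups with robust quasi-likelihood estimation and 5 comparisons, over 17717 genes. DESeq2 1.42.0 and limma 3.58.1 were alternatives, with other filters, scalings and covariates and single tumours left out. The edgeR test was run on simulated counts in which genes were drawn independently with a common spread. That setting does not cover keratins that vary together or lie mostly at 0 counts in a group. Correlations used log2 CPM with a prior count of 1 and 100000 permutations. Intervals and floors cover counting error only. At 24036333 to 63923086 counts per tumour, a gene at 0 counts could still hold up to 3.

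Symbols and positions came from GENCODE M21, which named 50376 of the 50600 identifiers, and promoters from RefSeq (GRCm38.p6), which held 35 keratins. Named fold changes are those of the keratins called and of the best known members of each class, with the 2 keratins of smallest p in the other comparisons, and single tumours, and keratins outside this rule, were named after their values were seen. The members and lists were chosen with earlier results of these data known.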

Additional observations from a re-analysis of the deposited data

Results flagged for a closer look

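In 15 of 122 combinations of a keratin and a group, 1 tumour lay far from the other 7 by Dixon's criterion for 8 samples at the 95% level. That level gives about 1 in 20 for independent, normally distributed values. Keratins vary together and many values lie at 0 counts, so the 15 cannot be set against that rate. Values are log2 CPM with a prior count of 1. Only combinations past the criterion are listed, and a tumour can be the lowest or highest of its group for further keratins. Ecad male 7 was flagged as the lowest of its group for 6 keratins. It had -5.18 for each of Krt14, Krt5, Krt77 and Krt79, all at 0 counts, -4.18 for Krt17 and -3.60 for Krt20. Its melanocytic genes summed to 70772 TPM, the highest of the Ecad males. Ecad female 3 was the highest of its group for Krt2 (4.67), Krt77 (3.27), Krt8 (3.04) and Krt18 (3.95). Its gland genes summed to 12680.0 TPM, nearly all from Bpifa2, Dcpp1 and Pip. Ecad female 4 was the highest for Krt86 (-1.48). ΔEcad male 7, the tumour with 31 TPM of melanocytic genes, was the highest of its group for Krt18 (4.47) and Krt13 (-0.69). ΔEcad male 3 was the highest for Krt42 (-0.99), and ΔEcad female 8 for Krt13 (8.13). The causes were not tested. By edgeR 0 keratins passed the test of the interaction between genotype and sex, with 31 at an unadjusted p under 0.05, and 27 passed by DESeq2 and 0 by limma voom.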

How the results depend on the processing

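Among females, the number of keratins called higher was 34 with DESeq2, 23 without the filter, 18 with DESeq2's size factors in edgeR, 7 with at least 1 CPM in 8 tumours, and 0 with limma voom, with only the compared groups in the fit, or with the keratinocyte or the melanocytic level as a covariate. With the melanocytic covariate Krt27, Krt72 and Krt42 still had log2 fold changes of 9.86, 10.78 and 6.21. Genes called in either direction were 213 by edgeR as reported, 1548 with DESeq2 and 1 with limma voom. The keratin count was 0 to 23 when 1 tumour was left out. Counts of all genes called in the other female settings, and with 1 tumour left out, are not given here. Those keratin counts therefore do not show whether keratins moved apart from other genes. DESeq2 called 28 keratins between the Ecad sexes, 1 between the ΔEcad sexes and 27 for the interaction, which gave 8 with other size factors, 8 without the filter and 0 to 19 with 1 tumour left out. In males the count was 0 in each. DESeq2 replaced outlying counts of 5 keratins. Without this, an alternative chosen after seeing the data, it called 34 between females, 28 between the Ecad sexes, 2 between the ΔEcad sexes and 28 for the interaction. The shares of all genes called without the replacement are not given here.

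Whether tumour numbers pair the samples is not known. Of 48 same-number correlations 16 were over 0.1, and in 4 the own number correlated best, which cannot exclude shared litters or batches. With tumour number as a replicate block, 0 keratins were called, and the share of all genes called in that fit is not given here. Between females, Krt2 turned to 1.36, 3.18 and 5.22 with DESeq2, limma voom and the block, Krt8 to 4.35, 2.85 and 2.82, and Krt18 to 2.54, 1.26 and 1.16. Krt20 turned to 0.37 with limma voom and 0.02 with the block. With 1 tumour left out the ranges were -2.25 to 7.73 for Krt2, -2.59 to 4.64 for Krt8, -2.65 to 2.56 for Krt18, -0.57 to 0.67 for Krt20 and -0.47 to 3.33 for Krt19. The keratinocyte covariate gave -0.03 for Krt14, -0.67 for Krt1, -3.09 for Krt16 and -0.85 for Krt17. In males Krt18 was -0.60, -0.09, -0.77 and -0.39 with DESeq2, limma voom, the block and the melanocytic covariate, and -0.56 to 4.00 with 1 tumour left out. With a prior count of 0.25, r was 0.394 for Krt14 with Krt18 and 0.571 for Krt18 with Cdh1 in ΔEcad tumours, and 0.541 and 0.858 without the libraries labelled ΔEcad male 2 and ΔEcad male 7. The causes were not tested.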
